A study of Bos taurus with 12 samples.

Results

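The genes described here are the matrix, integrin and metalloprotease families of bovine chromaffin cells in culture. Chromaffin cells secrete catecholamines from the adrenal medulla. The genes were chosen by symbol: collagens, laminins, integrins, matrix metalloproteases (MMPs), TIMPs, ADAM and ADAMTS proteins, thrombospondins, fibulins, SPARC proteins, lysyl oxidases and serpins. COL1A2, ITGB2, MMP9, TIMP1, TIMP3 and SERPING1 were left out by the rule and appear below only in the lists of neighbouring genes. The rule found 107 of the 9155 named genes, on 190 of the 24016 probe sets tested. Each gene was represented by its brightest probe set, by mean over the 12 arrays. The members were 22 collagens, 5 laminins, 8 thrombospondins, fibulins and SPARC proteins, 3 lysyl oxidases, 19 integrins, 3 integrin-binding proteins, 10 MMPs, 2 TIMPs, 9 ADAM proteins, 7 ADAMTS proteins and 19 serpins. The symbol rule also took in relatives that are not proteases or receptors themselves, such as ITGBL1 and ADAMTSL2.

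Cells from adrenal glands received 10 nM interleukin-6 (IL6) for 24 h, 1 nM human interferon alpha (IFNα) for 24 h, 10 µM histamine for 6 h, or no treatment. Each group had 3 single-colour Affymetrix bovine arrays, and the submitters call the triplicates technical repeats, so each p-value covers only the spread between these arrays. How long untreated cells were cultured is not stated. All 3 treatments were set against the same 3 untreated arrays, and the histamine cells also differ from the cytokine cells in time.

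The extracellular matrix is built from collagens and laminins, which are trimers of separately encoded chains, and from glycoproteins such as thrombospondins and SPARC that bind them. Integrins, heterodimers of an alpha and a beta chain, attach cells to this matrix, and lysyl oxidases cross-link its collagen. MMPs, ADAMs and ADAMTS proteases cut matrix and cell-surface proteins, while TIMPs block metalloproteases and most serpins block serine proteases. In the adrenal medulla, chromaffin cells lie in clusters on a basement membrane beside capillaries, and fibroblasts, endothelial cells and cortical cells can accompany them into culture.

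Values are log2 expression on the authors' RMA scale. They carry no detection call, and levels of different genes are not set against each other. The lower quartile of the arrays lay between 5.02 and 5.11 and the highest value between 14.01 and 14.14. A gene whose mean was below the lower quartile of every array is called dim here, and a fold against a dim group is a lower bound. Of the 107 members, 23 were dim in all 4 groups and 0 of these were called. Arrays of the same group correlated at 0.993 to 0.998 across probe sets, and precision is limited by the number of arrays. The 7 measured chromaffin markers averaged 11.95 to 12.71 per array, and none was dim.

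A gene was called at a Benjamini-Hochberg adjusted p under 0.05 over all probe sets (limma) and a fold of at least 1.5, a log2 change of 0.585. After IL6, 4 members were called, 2 higher and 2 lower (3.74% of members). The background was 2.39% of all probe sets (1.44% higher, 0.949% lower) and 2.76% of named genes. After IFNα, 10 members were called, 3 higher and 7 lower (9.35%), where 3.36% of all probe sets (2.18% higher, 1.18% lower) and 3.95% of named genes were called. After histamine, 7 members were called, 5 higher and 2 lower (6.54%), near the background of 5.7% of probe sets (2.99% higher, 2.71% lower) and 6.98% of named genes. Between the cytokines, 15 members differed, 9 higher and 6 lower after IL6 than after IFNα (14%), where 6.11% of probe sets (2.82% higher, 3.29% lower) and 6.96% of named genes did. In all, 24 members were called in at least 1 comparison.

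Most differences were small. The median log2 change of the members was 0.05 after IL6, -0.04 after IFNα and 0.08 after histamine, and 0.09 between IL6 and IFNα. Over all probe sets these medians were 0.003, -0.02, -0.002 and 0.03. With the adjusted p alone and no fold minimum, 27 members passed after IL6 (9 higher, 18 lower), 30 after IFNα (10 higher, 20 lower), 27 after histamine (20 higher, 7 lower) and 36 between the cytokines (22 higher, 14 lower). Under that rule 17.4% of all probe sets and 21.3% of named genes passed after IL6, 16.7% and 22.1% after IFNα, 31.6% and 40.9% after histamine, and 28.5% and 35.1% between the cytokines. By limma's moderated F test over the 4 groups, 53 of 107 members differed (49.5%), against 49.1% of all probe sets and 60.5% of named genes.

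**Figure D1:**
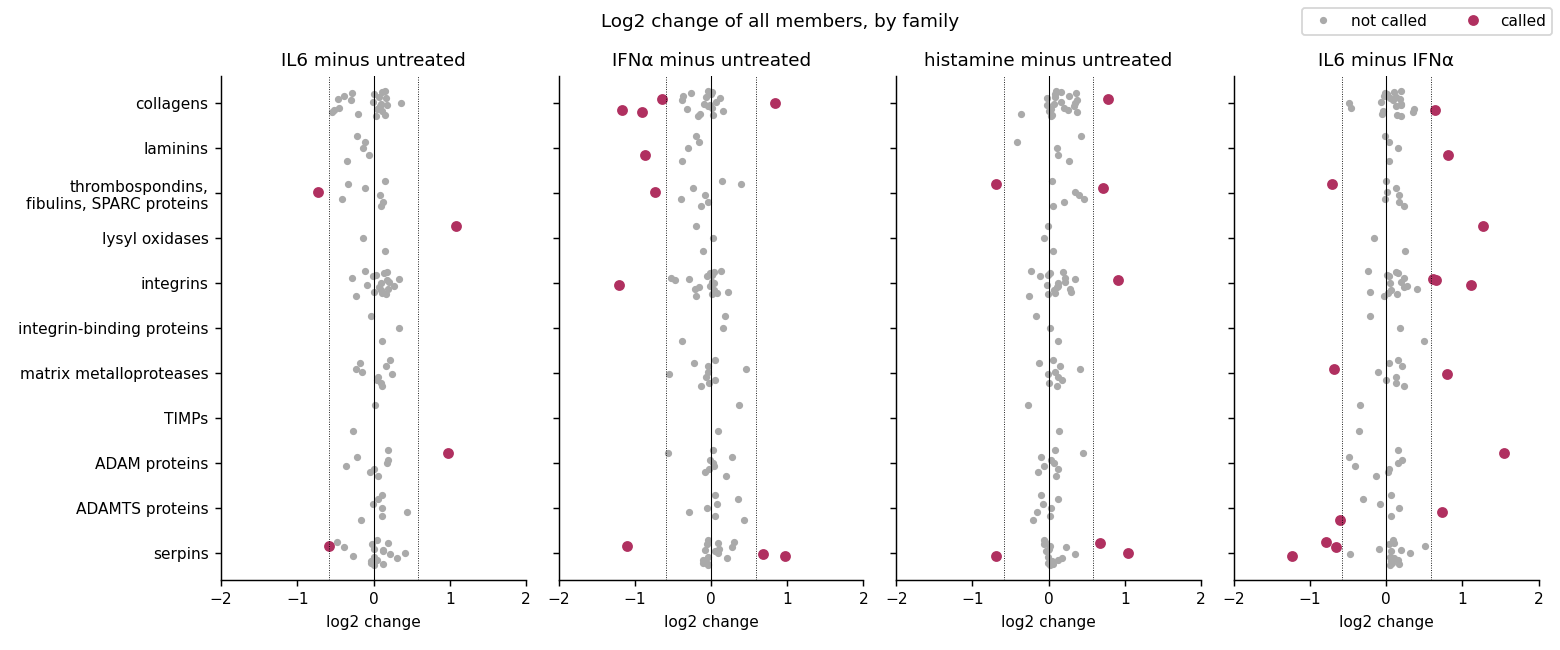
Log2 change of each of the 107 members (points) by family, for the 3 treatments against untreated cells and for IL6 against IFNα, with dotted lines at the 1.5-fold minimum and called members in red. Most points lie between the lines, and the cytokine contrast holds the most called members, 15.

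Among the 35 structural members (collagens, laminins, thrombospondins, fibulins and SPARC proteins), IL6 called 0 higher and 1 lower, IFNα 1 higher and 5 lower, and histamine 2 higher and 1 lower. With the adjusted p alone the split was 0 higher and 11 lower after IL6, 2 higher and 12 lower after IFNα, and 12 higher and 3 lower after histamine. Of named genes, 8.32% passed higher and 12.9% lower after IL6, 9.14% higher and 12.9% lower after IFNα, and 20.4% higher and 20.5% lower after histamine. Of all probe sets, these shares were 6.68% and 10.7%, 6.74% and 9.99%, and 15.1% and 16.4%. The median log2 change of the 35 was -0.01 after IL6, -0.14 after IFNα and 0.16 after histamine. The sign was negative for 18 after IL6 and 26 after IFNα, and positive for 30 after histamine. For 7 genes the change was negative after both cytokines and positive after histamine, each with an adjusted p under 0.05: COL4A1, COL5A2, COL6A1, COL12A1, LAMA4, SPARC and THBS1. These comparisons share the untreated arrays, so a high or low untreated value would move all 3 together. How many of all named genes had the pattern of these 7 was not counted.

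COL4A1, a chain of the type IV collagen network of basement membranes, read 7.44, 7.45 and 7.48 after IL6, 7.34, 7.22 and 7.28 after IFNα, 8.69, 8.60 and 8.82 after histamine, and 7.95, 7.97 and 7.85 in untreated cells. No treated array overlapped the untreated ones: both cytokine groups lay below them and the histamine group above. COL4A1 rose 1.72-fold after histamine (log2 change 0.78, SE 0.07, limma adjusted p = 6.9e-07) and fell by 0.64 after IFNα (SE 0.07, adjusted p = 6.1e-06). After IL6 its log2 change of -0.47 (adjusted p = 0.00022) was below the fold minimum. Its other probe set was also called after histamine (0.59), but read -0.31 after IFNα.

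COL12A1, a collagen that decorates the surface of fibrils, read 5.99, 5.85 and 5.69 after IL6, 5.53, 5.39 and 5.54 after IFNα, 6.94, 6.56 and 6.77 after histamine, and 6.50, 6.48 and 6.18 in untreated cells. Each treated group lay apart from the untreated arrays. It fell by 0.90 after IFNα (SE 0.11, adjusted p = 4.1e-05), while the log2 changes of -0.54 after IL6 and 0.37 after histamine missed the fold minimum. The IL6 change passed it without IL6 repeat 1 (-0.62) or untreated repeat 3 (-0.65). The other 2 probe sets of COL12A1 read -0.11 and -0.04 after IFNα.

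COL15A1, a collagen of basement membrane zones, read 6.62, 6.65 and 6.25 after IL6, 6.00, 6.02 and 5.56 after IFNα, 7.29, 7.07 and 7.47 after histamine, and 7.09, 7.03 and 6.96 in untreated cells. Every cytokine array was below every untreated array, and the histamine arrays overlapped them at their lower end. It fell by 1.17 after IFNα (SE 0.14, adjusted p = 2e-05), the largest fall of a structural member in any treatment. Levels after IL6 were 0.65 higher than after IFNα, a difference that fell below the fold minimum without IL6 repeat 2 (0.575) or IFNα repeat 3 (0.50). The log2 change after IL6 was -0.52 (adjusted p = 0.017), not called, and -0.59 without IL6 repeat 2, called. The other probe set of COL15A1 read -0.41 after IFNα and 0.15 between the cytokines, neither called.

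COL27A1, a fibril-forming collagen best known from cartilage, went the other way from these genes after IFNα. It read 5.91, 6.50 and 6.87 after IL6, 6.87, 6.74 and 7.12 after IFNα, 6.46, 6.40 and 6.40 after histamine, and 6.22, 5.92 and 6.07 in untreated cells. The IFNα arrays were all above the untreated ones, while the IL6 arrays were spread across both. COL27A1 rose 1.79-fold after IFNα (log2 change 0.84, SE 0.18, adjusted p = 0.0037). Neither its IL6 change of 0.36 nor its difference of -0.48 between the cytokines was called, and both depended on the IL6 arrays. Without IL6 repeat 1, the only one below the untreated arrays, the change after IL6 was 0.62 and called. The difference between the cytokines was -0.705 without IL6 repeat 3 and -0.895 without the 3 arrays in which hypoxia genes were raised (described with LOXL4), and then called. The order of its IL6 arrays was that of the hypoxia genes. The other probe set of COL27A1 read 0.09 after IFNα.

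Of the fibril collagens of connective tissue, the members COL1A1, COL3A1 and COL5A2 were not called in any comparison. COL1A2, the partner chain of COL1A1 and not a member, rose by 0.69 on the log2 scale after histamine (adjusted p = 4.7e-05) and had -0.39 after IL6 and -0.25 after IFNα, not called. The mean of its 2 probe sets after histamine was 0.53, not called. COL3A1 had log2 changes of -0.29 after IL6, -0.38 after IFNα and 0.37 after histamine (adjusted p = 0.084, 0.025 and 0.017 in limma). COL1A1 read 6.49, 6.64 and 6.60 after histamine, against 6.20, 6.15 and 6.39 in untreated cells, a log2 change of 0.33 (adjusted p = 0.0063). These COL1A1 groups did not overlap. COL5A2, which helps start fibrils, and COL6A1, a chain of beaded filaments, had log2 changes of -0.39 and -0.28 after IL6, -0.37 and -0.26 after IFNα, and 0.27 and 0.36 after histamine. COL18A1, the precursor of the anti-angiogenic fragment endostatin, read 5.35, 5.27 and 5.29 after IL6, 5.87, 5.70 and 5.72 after IFNα, and 5.74, 5.69 and 5.82 in untreated cells. Only the IL6 arrays of COL18A1 were separate among these (log2 change -0.45, adjusted p = 0.0036, not called). COL11A1 had 7 probe sets. The brightest had a log2 change of 0.16 after IL6 and another was called at -0.67, so this gene has no single direction here.

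Of the 5 laminin chains, 1 was called in a pair of groups. All 5 passed the F test, which 60.5% of named genes did. LAMB1, the beta chain of the most widespread laminins, read 8.42, 8.11 and 8.03 after IL6, 7.47, 7.40 and 7.24 after IFNα, 8.29, 8.38 and 8.44 after histamine, and 8.32, 8.23 and 8.18 in untreated cells. The IFNα arrays stood apart below all others. LAMB1 fell by 0.87 after IFNα (SE 0.09, adjusted p = 8.4e-06) and was 0.82 higher after IL6 than after IFNα. Its changes after IL6 (-0.06) and histamine (0.13) were not called.

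LAMC1, the gamma chain that partners it, read 9.29, 9.08 and 9.17 after IL6, 9.28, 9.25 and 9.06 after IFNα, 9.89, 9.78 and 9.79 after histamine, and 9.38, 9.43 and 9.37 in untreated cells. Both cytokine groups lay below and the histamine group above the untreated arrays, by -0.21, -0.20 and 0.43, not called. LAMA4, a laminin chain of vessels and muscle, had log2 changes of -0.35, -0.38 and 0.26 after IL6, IFNα and histamine, and LAMB2 had -0.14, -0.30 and 0.11. LAMB3, a chain of epithelial laminin, differed in sign after histamine, at 5.53, 5.53 and 5.46 against 5.90, 6.06 and 5.80 in untreated cells (-0.41, adjusted p = 0.00096, not called).

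THBS1, a thrombospondin that inhibits angiogenesis and activates latent TGF-beta, was the only member called lower after both cytokines besides SERPINF1. It read 9.67, 9.52 and 9.50 after IL6, 9.76, 9.65 and 9.24 after IFNα, 10.74, 10.45 and 10.72 after histamine, and 10.31, 10.25 and 10.30 in untreated cells. No treated array overlapped an untreated one. It fell by 0.72 after IL6 (SE 0.11, adjusted p = 0.00034) and by 0.74 after IFNα (SE 0.11, adjusted p = 0.00019), and its histamine change of 0.35 was not called. Without IFNα repeat 3, its lowest array, the IFNα change was -0.58 and no longer called. Of its other 5 probe sets, 1 was called lower after each cytokine, and the 5 ranged from -0.85 to 0.09 after IL6. With the mean of all its probe sets, THBS1 had -0.355 after IL6 and -0.38 after IFNα, neither called.

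THBS2, the related anti-angiogenic thrombospondin, read 6.70, 6.67 and 6.81 after histamine, against 6.14, 5.86 and 6.05 in untreated cells. These groups did not overlap, and THBS2 rose 1.64-fold (log2 change 0.71, SE 0.09, adjusted p = 2e-05). After IL6 and IFNα its log2 changes were -0.11 and -0.24, not called.

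THBS3, a thrombospondin of the group that forms pentamers, had another order. It read 6.71, 6.86 and 6.73 after IL6, 7.54, 7.48 and 7.43 after IFNα, 6.43, 6.47 and 6.33 after histamine, and 7.11, 7.05 and 7.13 in untreated cells. None of the 4 groups overlapped another. It fell by 0.69 after histamine (SE 0.07, adjusted p = 2.9e-06) and was lower after IL6 than after IFNα (log2 difference -0.72), while its changes of -0.33 after IL6 and 0.39 after IFNα missed the fold minimum. Its other probe set read -0.12 after histamine and -0.20 between the cytokines.

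SPARC, a collagen-binding glycoprotein, read 8.34, 8.34 and 8.33 after IL6, 8.47, 8.28 and 8.31 after IFNα, 9.40, 9.31 and 8.94 after histamine, and 8.79, 8.73 and 8.73 in untreated cells. Both cytokine groups lay below the untreated arrays and the histamine group above. The log2 changes of -0.41, -0.40 and 0.47 were not called. Without histamine repeat 3, its lowest histamine array, the last was 0.61 and called. SPARCL1, its relative, had a log2 change of 0.40 after histamine, not called. The fibulins FBLN1 and FBLN5, which bind basement membrane and elastic fibres, had changes between -0.14 and 0.21 in the treatments, with none called.

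**Figure D2:**
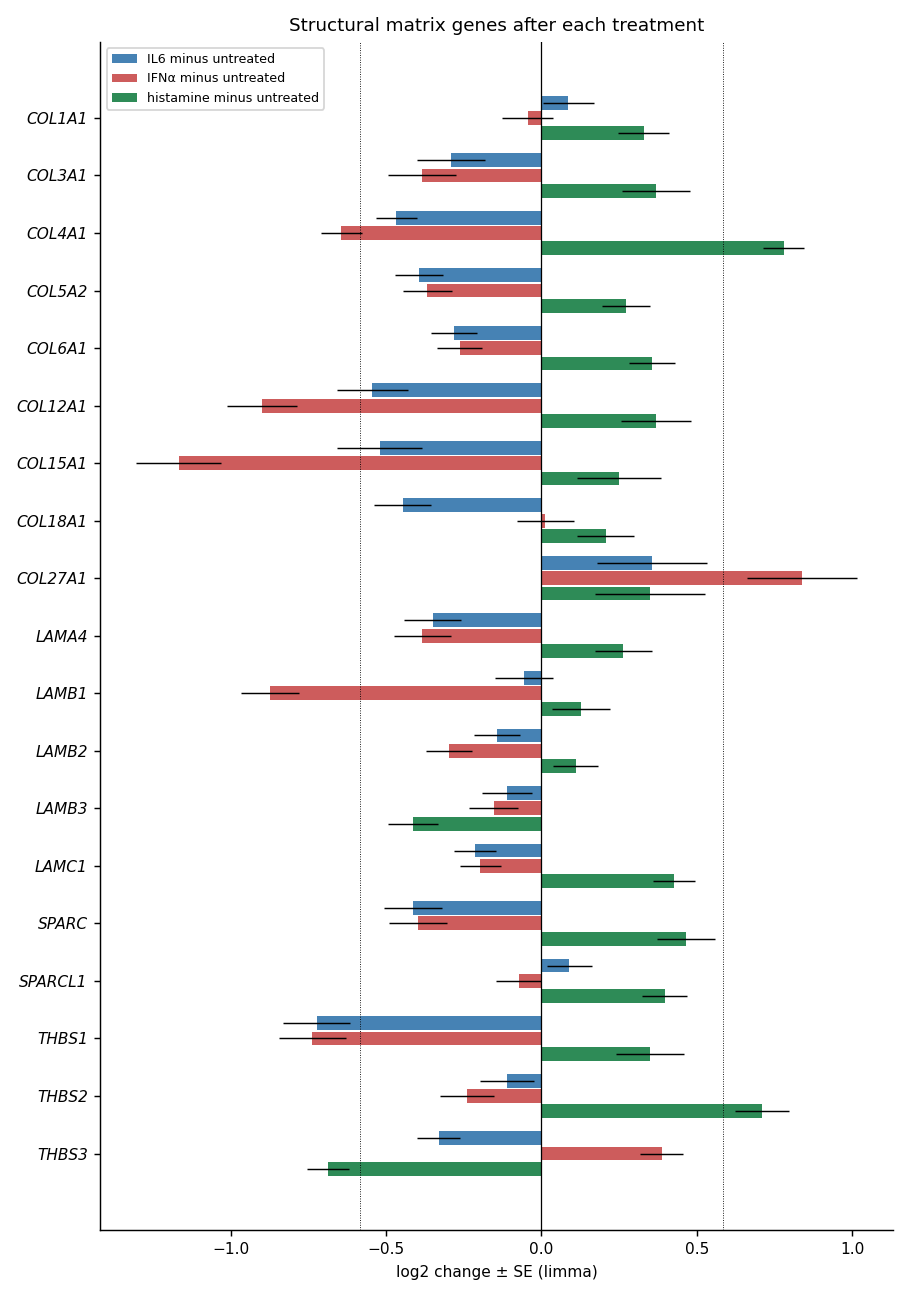
Log2 change (bars) with limma's standard error (lines) after IL6, IFNα and histamine against the same untreated arrays, for structural members the text discusses, with dotted lines at the 1.5-fold minimum. COL4A1, COL5A2, COL6A1, COL12A1, LAMA4, SPARC and THBS1 run left after both cytokines and right after histamine, while COL27A1 and THBS3 do not.

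Marker levels of chromaffin cells and of other cell types moved beside these matrix changes. The mean of the 7 chromaffin markers differed from its untreated mean by -0.29 to 0.07 after IL6, -0.05 to 0.34 after IFNα and 0.32 to 0.48 after histamine. Of the 7, 1 was called higher and 1 lower after IL6, 0 after IFNα and 2 higher after histamine. After histamine PNMT had 2.29, and the median of the 7 was 0.18. The 10 measured adrenal cortex markers had a mean level of 6.49 to 6.54 after IL6, 6.33 to 6.40 after IFNα and 7.35 to 7.38 after histamine, against 6.93 to 6.96 in untreated cells. Every cytokine array was below and every histamine array above the untreated arrays in this mean, and none of these markers was dim. Of the 10, 3 were called lower after IL6, 5 lower after IFNα and 2 higher after histamine. Of named genes, 2.76% were called after IL6, 3.95% after IFNα and 6.98% after histamine. The 14 fibroblast and mural markers averaged 7.71 to 7.74 after IL6, 7.55 to 7.67 after IFNα and 8.07 to 8.11 after histamine, against 7.76 to 7.78 in untreated cells. Of the 14, 1 was called higher and 1 lower after IL6, 1 lower after IFNα and 3 higher after histamine, and DPT and FAP were dim in all groups. The 3 after histamine were CNN1 (1.24), MGP (0.78) and COL1A2 (0.69). With the mean of a gene's probe sets, MGP turned to -0.27 and COL1A2 had 0.53, neither called. After IL6, 7 of the 14 were above and 7 below the untreated mean, with a median of 0.02. This list shares 6 genes with the other matrix genes described below, POSTN among them, and is not independent of them. The remaining 8 differed from the untreated mean by -0.20 to -0.10 after IL6, -0.27 to -0.17 after IFNα and 0.24 to 0.31 after histamine. The 12 endothelial markers averaged 5.70 to 5.87, 5.66 to 5.67 and 5.76 to 5.89 after IL6, IFNα and histamine, against 5.92 to 5.96 in untreated cells. Their mean was lower on every treated array than on the untreated ones, and KDR and VWF were dim in all groups. Of the 12, 1 was called lower after IL6 and 1 lower after IFNα. After histamine 3 had a positive and 9 a negative change, with CLDN5 called higher (0.62) and TEK lower (-0.81). The 10 leukocyte markers differed from the untreated mean by 0.15 to 0.23 after IL6, -0.09 to 0.01 after IFNα and 0.11 to 0.18 after histamine, and 4 of them, PTPRC among these, were dim in all groups. After IL6, CORO1A (1.70) and CD14 (1.03) were called higher and ITGB2 (-0.95) lower, and after histamine CORO1A was called higher (0.70). The 6 Schwann and satellite cell markers differed by -0.15 to 0.09. In bulk RNA, fewer cells of a type and less RNA per cell cannot be told apart, and the part of these markers in the matrix changes was not tested.

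**Figure D3:**
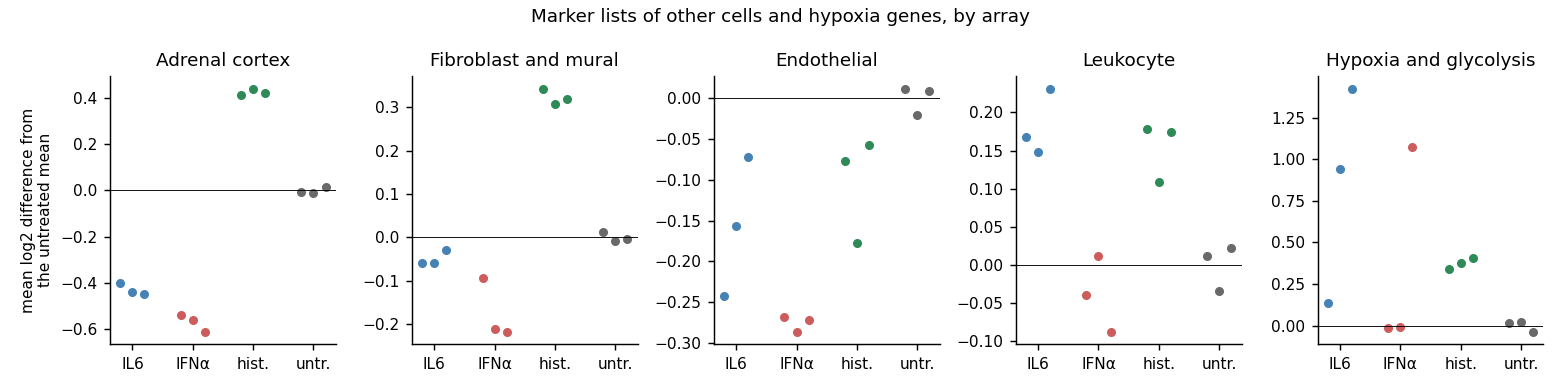
Mean difference from the untreated mean (log2) of marker lists and hypoxia genes, 1 point per array. The cortex points are below 0 after both cytokines and above 0 after histamine, and IL6 repeats 2 and 3 and IFNα repeat 3 are high for hypoxia genes.

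LOXL4, a lysyl oxidase-like enzyme of collagen cross-linking, was highest after IL6. It read 6.83, 7.09 and 7.38 after IL6, 5.93, 5.67 and 5.89 after IFNα, 6.16, 5.93 and 5.96 after histamine, and 6.12, 6.01 and 5.94 in untreated cells. The IL6 arrays were above all others, and the histamine group overlapped the untreated arrays. LOXL4 rose 2.11-fold after IL6 (log2 change 1.08, SE 0.12, limma adjusted p = 2.5e-05), the largest rise of any member against untreated cells, and was 2.41-fold higher after IL6 than after IFNα (log2 1.27). The order of its IL6 arrays is also that of the 13 hypoxia and glycolysis genes, which were 0.14, 0.94 and 1.42 above the untreated mean on IL6 repeats 1, 2 and 3, and 1.07 above it on IFNα repeat 3. On the 3 histamine arrays these genes were 0.34, 0.38 and 0.41 above the untreated mean, with 2 of the 13 called higher. The 3 arrays with raised hypoxia genes are here those where they were raised most, IL6 repeats 2 and 3 and IFNα repeat 3. Without these 3 arrays, LOXL4 was 0.81 above untreated cells and 1.03 above IFNα. That leaves a single IL6 array, assumed to vary like the other groups. LOX, which was dim, had changes of 0.15, -0.11 and 0.06 after IL6, IFNα and histamine, and LOXL1 had -0.14, 0.02 and -0.06, none called.

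ITGAE, the alpha chain that pairs with the beta-7 integrin and binds E-cadherin, had the largest fall of any member. It read 9.03, 8.90 and 8.85 after IL6, 7.80, 7.85 and 7.78 after IFNα, 9.00, 8.99 and 9.01 after histamine, and 9.00, 9.08 and 8.97 in untreated cells. The IFNα arrays lay far below the other 3 groups, which overlapped. ITGAE fell by 1.21 after IFNα (SE 0.06, adjusted p = 6.5e-10) and was 1.12 higher after IL6 than after IFNα. Its partner ITGB7 had a log2 change of 0.04 after IFNα, not called.

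ITGAV, the alpha chain of receptors for vitronectin and latent TGF-beta, read 9.40, 9.28 and 9.24 after IL6, 8.92, 8.72 and 8.33 after IFNα, 10.07, 9.98 and 10.06 after histamine, and 9.17, 9.12 and 9.09 in untreated cells. No group overlapped another. It rose 1.88-fold after histamine (log2 change 0.91, SE 0.11, adjusted p = 1.2e-05), and its other probe set was called at 0.76. It was 0.65 higher after IL6 than after IFNα, but 0.49 without IFNα repeat 3 and 0.58 without the 3 arrays in which hypoxia genes were raised, and then not called. The change of -0.47 after IFNα was not called, but was -0.60 and called without IFNα repeat 1.

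ITGB1, the beta chain shared by many collagen and laminin receptors, read 13.01, 12.96 and 12.90 after IL6, 12.41, 12.33 and 12.27 after IFNα, 12.93, 12.96 and 13.02 after histamine, and 12.69, 12.56 and 12.63 in untreated cells. The IFNα arrays lay below the untreated ones, and the IL6 and histamine arrays above. ITGB1 was 0.62 higher after IL6 than after IFNα (SE 0.04, adjusted p = 3.8e-08), while the changes of 0.33, -0.29 and 0.34 against untreated cells were each past the adjusted p and short of the fold minimum. ITGB1BP1, a cytoplasmic protein that binds its tail, was 0.49 higher after IL6 than after IFNα, just short of that minimum.

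ITGB3, a beta partner of ITGAV, had log2 changes of -0.28 after IL6, -0.52 after IFNα and 0.21 after histamine, none called. Its IFNα arrays read 6.81, 6.75 and 6.50, all below the 7.33, 7.13 and 7.16 of untreated cells. ITGA5, the alpha chain of the fibronectin receptor, had changes of 0.19, -0.22 and 0.28 and was 0.41 higher after IL6 than after IFNα, not called. ITGB5 read 13.55 to 13.64 on all arrays, near the top of the scale. Whether a small change could show at that level was not tested. Its other probe set was called lower after IFNα (-0.61) and higher after IL6 than after IFNα (0.80). ITGA2, a collagen receptor chain, was dim on its brightest probe set and called on another at 0.98 after histamine. That probe set read 4.70, 4.55 and 4.86 after histamine and 3.70, 3.65 and 3.83 in untreated cells, all below the lower quartile.

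MMP2, the gelatinase that cuts type IV collagen, read 7.94, 7.94 and 8.21 after IL6, 8.64, 8.71 and 8.79 after IFNα, 8.65, 8.60 and 8.76 after histamine, and 8.23, 8.35 and 8.19 in untreated cells. The IFNα and histamine arrays were above the untreated ones, and IL6 repeat 3 overlapped them. MMP2 was lower after IL6 than after IFNα (log2 difference -0.68, SE 0.08, adjusted p = 1.1e-05). Against untreated cells its changes of -0.23, 0.46 and 0.41 after IL6, IFNα and histamine were not called.

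MMP16, a membrane-type metalloprotease, read 5.78, 6.03 and 5.63 after IL6, 5.16, 5.08 and 4.82 after IFNα, 5.53, 5.57 and 5.60 after histamine, and 5.52, 5.61 and 5.58 in untreated cells. The IFNα arrays were below all others, at the level of the arrays' lower quartile. It was 0.79 higher after IL6 than after IFNα (SE 0.10, adjusted p = 3.5e-05), while the other 2 probe sets read -0.13 and 0.11. The log2 change of -0.55 after IFNα was not called. It was -0.62 and called without IFNα repeat 1. The collagenases MMP1 and MMP13 were dim in all groups, and the stromelysin MMP3 and the membrane protease MMP14, which activates MMP2, had changes between 0.05 and 0.21 in the treatments, none called.

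TIMP2, an inhibitor that also takes part in MMP2 activation, read 10.18, 10.31 and 10.25 after IL6, 10.60, 10.66 and 10.56 after IFNα, and 10.46, 10.56 and 10.54 in untreated cells. The IL6 arrays were below the untreated ones, with a log2 change of -0.27 (adjusted p = 0.0014), not called. After IFNα the brightest probe set of TIMP2 had a change of 0.09, its lowest array equal to the highest untreated one, while the other 2 read -0.60, called, and -0.45, so the direction of TIMP2 after IFNα depends on the probe set. TIMP4, another metalloprotease inhibitor, had changes of 0.02 after IL6, 0.37 after IFNα and -0.28 after histamine, none called.

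ADAM9, a membrane-anchored metalloprotease that sheds cell-surface proteins and binds integrins, had the largest difference between the cytokines of any member. It read 10.31, 10.18 and 10.02 after IL6, 8.71, 8.66 and 8.51 after IFNα, 9.57, 9.62 and 9.75 after histamine, and 9.24, 9.08 and 9.26 in untreated cells. None of the 4 groups overlapped another. ADAM9 rose 1.97-fold after IL6 (log2 change 0.98, SE 0.08, adjusted p = 1.1e-06) and was 2.91-fold higher after IL6 than after IFNα (log2 1.54). The change of -0.57 after IFNα (adjusted p = 0.00012) was just short of the fold minimum, and was called without IFNα repeat 1 (-0.61) or untreated repeat 2 (-0.62). The change of 0.45 after histamine was not called. Its other 2 probe sets were both called higher after IL6 than after IFNα, at 0.89 and 1.22.

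The sheddase ADAM10 and the other ADAM members were not called. ADAM19 had log2 changes of -0.36 against untreated cells and -0.40 against IFNα after IL6. ADAM23, which lacks protease activity and acts in neuronal adhesion, read 5.80, 5.20 and 5.21 after IL6, 5.98, 6.02 and 5.69 after IFNα, and 5.68, 5.67 and 5.51 in untreated cells. Its difference between the cytokines was -0.49, just short of the fold minimum, and was -0.69 without IL6 repeat 1, which overlapped the IFNα arrays, and -0.60 without IFNα repeat 3.

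ADAMTS1 and ADAMTS4, secreted proteases that cut aggregating proteoglycans, moved in opposite directions between the cytokines. ADAMTS1 read 7.96, 8.01 and 8.00 after IL6, 8.63, 8.61 and 8.54 after IFNα, and 8.23, 8.14 and 8.11 in untreated cells. ADAMTS4 read 7.08, 7.05 and 7.06 after IL6, 6.47, 6.06 and 6.47 after IFNα, and 6.76, 6.62 and 6.49 in untreated cells. In each gene the IL6 and IFNα arrays did not overlap each other. ADAMTS1 was lower after IL6 than after IFNα (log2 difference -0.60, SE 0.08, adjusted p = 3.4e-05), and ADAMTS4 was 0.73 higher (SE 0.10, adjusted p = 7.5e-05). The ADAMTS1 difference was -0.57 with median centring, -0.56 with quantile normalization and -0.53 with the mean of its probe sets, below the fold minimum. Against untreated cells, ADAMTS1 had -0.17 after IL6, 0.43 after IFNα and -0.20 after histamine, and ADAMTS4 had 0.44, -0.29 and -0.15, none called. ADAMTS2, ADAMTS5, ADAMTS6 and ADAMTS8 were dim in all groups.

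SERPINB1, an intracellular inhibitor of neutrophil elastase and related proteases, moved in both directions. It read 9.90, 9.93 and 9.84 after IL6, 11.12, 11.18 and 11.09 after IFNα, 9.44, 9.48 and 9.49 after histamine, and 10.18, 10.14 and 10.17 in untreated cells. None of the 4 groups overlapped another. SERPINB1 rose 1.95-fold after IFNα (log2 change 0.97, SE 0.04, adjusted p = 2e-10), fell by 0.69 after histamine (adjusted p = 2.3e-08), and had -0.27 after IL6, not called. It was lower after IL6 than after IFNα (log2 difference -1.24), and its other probe set was called in the same 3 comparisons in the same directions.

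SERPINB6, a related intracellular inhibitor, read 8.89, 9.02 and 9.04 after IL6, 9.35, 9.42 and 9.60 after IFNα, 9.02, 9.14 and 9.21 after histamine, and 8.72, 8.76 and 8.84 in untreated cells. All treated arrays were above all untreated ones. SERPINB6 rose 1.61-fold after IFNα (log2 change 0.68, SE 0.07, adjusted p = 7.1e-06), and 0.21 after IL6 and 0.35 after histamine were not called.

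SERPINB8, another member of this intracellular group, read 7.78, 7.72 and 7.77 after IL6, 7.45, 7.44 and 7.44 after IFNα, 8.41, 8.35 and 8.41 after histamine, and 7.44, 7.31 and 7.30 in untreated cells. The histamine arrays were the highest, and the IFNα arrays touched the highest untreated one. It rose 2.06-fold after histamine (log2 change 1.04, SE 0.06, adjusted p = 1.3e-08), the only member past 2-fold there, and had 0.41 after IL6, not called.

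SERPINH1, the collagen chaperone of the endoplasmic reticulum, read 9.44, 9.56 and 9.55 after IL6, 9.38, 9.36 and 9.51 after IFNα, 10.00, 10.04 and 9.98 after histamine, and 9.34, 9.34 and 9.30 in untreated cells. The histamine arrays lay well above the others. It rose 1.60-fold after histamine (log2 change 0.68, SE 0.05, adjusted p = 2.4e-07), and 0.19 after IL6 and 0.09 after IFNα were not called.

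SERPINF1, pigment epithelium-derived factor, which inhibits angiogenesis without blocking a protease, read 5.28, 5.37 and 5.23 after IL6, 4.89, 4.75 and 4.72 after IFNα, 5.72, 5.92 and 6.05 after histamine, and 5.75, 6.00 and 5.90 in untreated cells. The cytokine arrays lay below all untreated ones, and the histamine arrays overlapped them. It was at least 2.14-fold lower after IFNα (log2 change -1.10, SE 0.09, adjusted p = 7.6e-07), a bound because the IFNα mean was dim. It fell by 0.59 after IL6 (adjusted p = 0.00056), at the fold minimum. That call was lost without IL6 repeat 1 or 3 or untreated repeat 2 or 3, when the change lay between -0.58 and -0.53.

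SERPINE2 (protease nexin) and SERPINI1 (neuroserpin) inhibit plasminogen activators, and SERPINE2 also thrombin. SERPINE2 read 7.31, 7.31 and 7.53 after IL6, 8.14, 7.96 and 8.04 after IFNα, and 7.91, 7.62 and 7.78 in untreated cells. SERPINI1 read 9.19, 9.28 and 9.40 after IL6, 10.05, 10.08 and 10.09 after IFNα, and 9.79, 9.83 and 9.70 in untreated cells. In both, the IL6 arrays were below and the IFNα arrays above the untreated ones. Their differences between the cytokines were -0.66 (SE 0.09, adjusted p = 3.6e-05) and -0.78 (SE 0.06, adjusted p = 9.4e-08). Against untreated cells, SERPINE2 had -0.39 after IL6 and 0.28 after IFNα and SERPINI1 had -0.48 and 0.30, none called. The 12 other serpins had no call, and SERPINA7, SERPINA11, SERPINA14, SERPIND1 and SERPINI2 were dim in all groups.

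**Figure D4:**
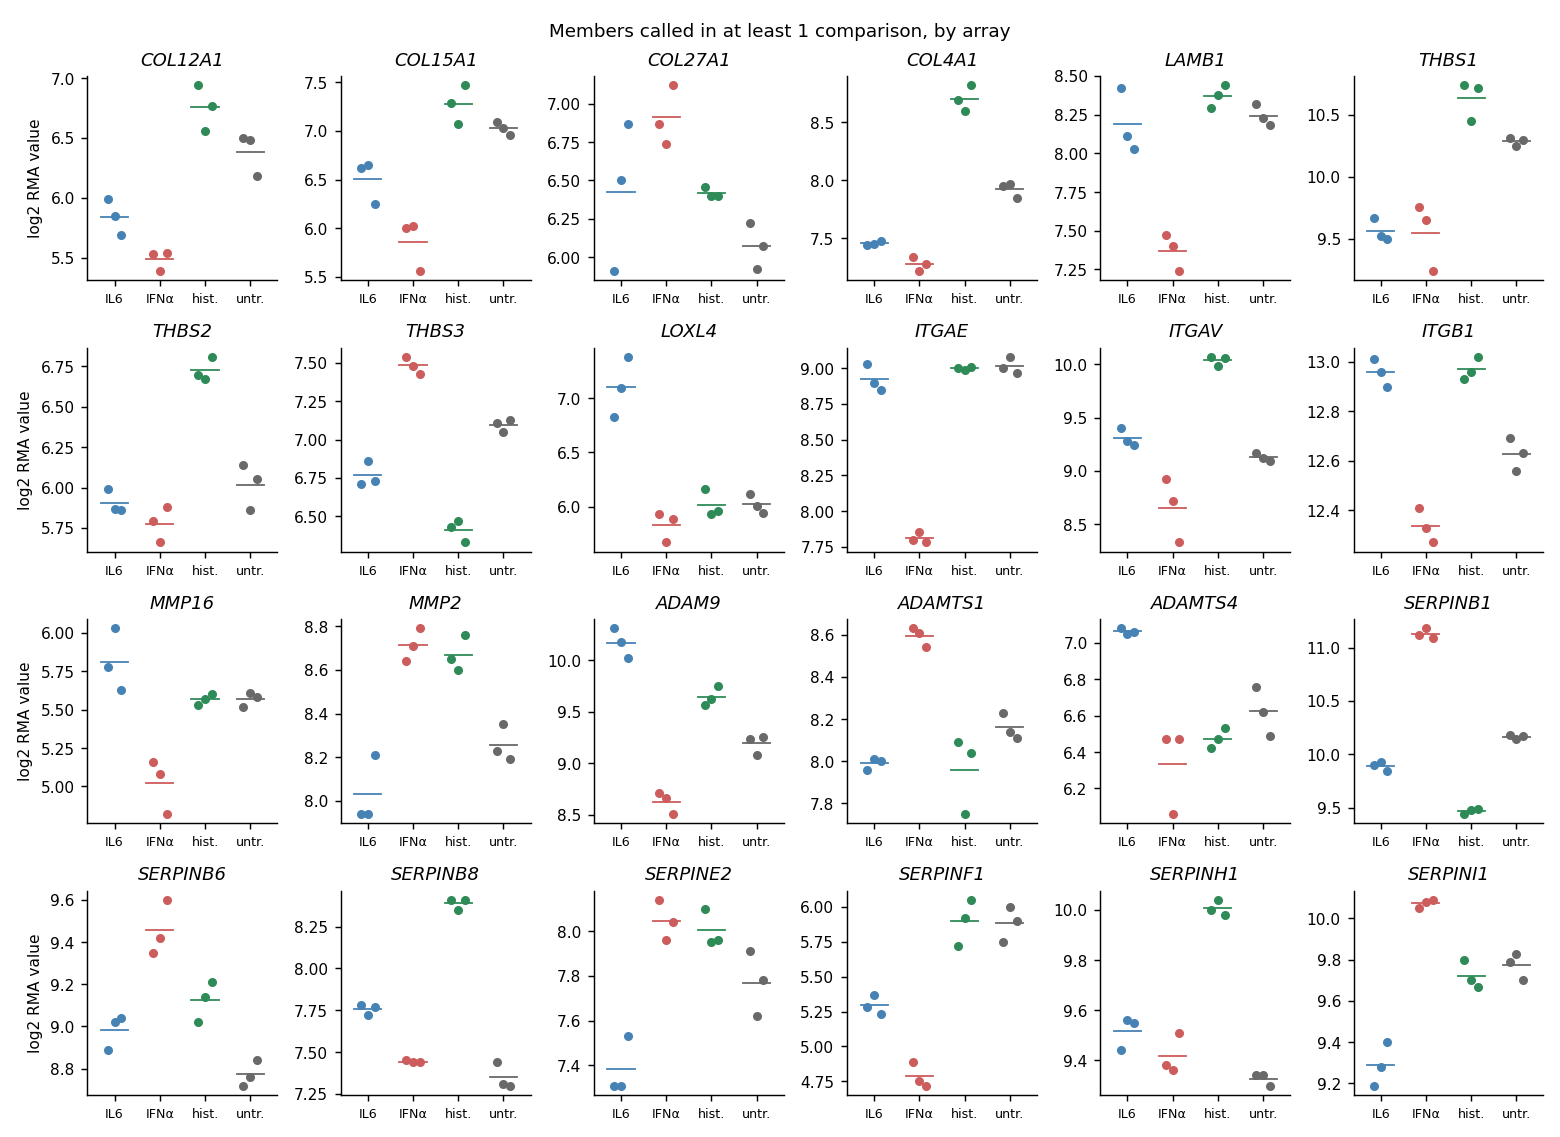
Log2 RMA values of the 24 members called in at least 1 comparison, 1 point per array, with a line at each group mean; each panel has its own vertical scale. ADAM9, SERPINB1 and THBS3 show 4 separate groups, ITGAE differs in the IFNα arrays alone and LOXL4 in the IL6 arrays.

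IL6 and IFNα differed in direction for 6 members with an adjusted p under 0.05 against untreated cells for both cytokines. ADAM9 and ITGB1 were positive after IL6 and negative after IFNα, and SERPINB1, SERPINE2, SERPINI1 and THBS3 the reverse. The direct test of IL6 against IFNα called each of the 6. This adds little, because opposite changes against the same untreated arrays add up in that difference. How many of all named genes had such opposite changes was not counted. By family, 3 of 19 integrins (ITGAE, ITGAV and ITGB1) were called in the direct test, all higher after IL6. Of 19 serpins, 3 were called, all lower. Both shares are near the 14% of all members. In this test 6.96% of named genes and 6.11% of all probe sets were called.

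**Figure D5:**
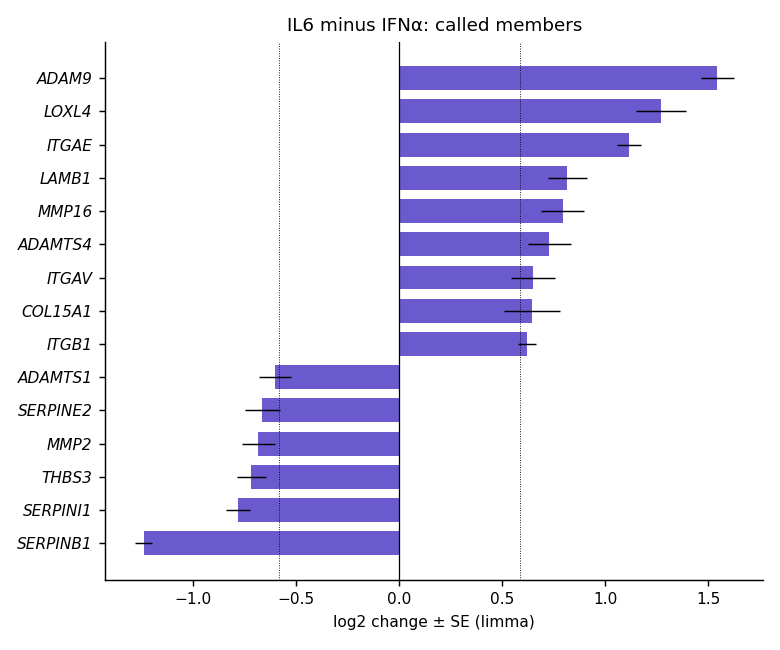
Difference between IL6 and IFNα (log2, bars) with limma's standard error (lines) for the 15 called members, with dotted lines at the 1.5-fold minimum. ADAM9 is highest at 1.54 and SERPINB1 lowest at -1.24.

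Counts in the lists that follow stand beside the 2.76% of named genes called after IL6, 3.95% after IFNα and 6.98% after histamine. Of 14 measured collagen-modifying genes, 2 rose after IL6, 0 were called after IFNα and 1 rose after histamine, with median log2 changes of 0.04, -0.09 and 0.115. PCOLCE2, an enhancer of procollagen processing, read 5.78, 5.53 and 5.55 after IL6, 4.53, 4.31 and 4.31 after IFNα, and 4.48, 4.55 and 4.39 in untreated cells. The IL6 arrays were above all these, and it was at least 2.21-fold higher after IL6, a bound because untreated cells were dim. P4HA2, a prolyl hydroxylase of collagen, rose by 0.62 after IL6 (log2), but was 0.21 without the 3 arrays with raised hypoxia genes. Its IL6 call was lost under 10 of 23 alternatives, among them leaving out each untreated array. P4HA2 was also the gene called after histamine (0.64), a call lost without histamine repeat 3 or untreated repeat 2 or 3. P4HA3 was 0.87 higher after IL6 than after IFNα. Of 32 other matrix genes, 2 rose and 1 fell after IL6, 0 rose and 2 fell after IFNα, and 4 rose and 0 fell after histamine, with medians of 0.005, -0.08 and 0.07. The largest changes of this list after the cytokines were those of TNFAIP6, which rose by 1.88 after IL6 and fell by 2.08 after IFNα (log2). POSTN rose by 0.94 after IL6. NID1, a basement membrane linker between laminin and type IV collagen, fell after both cytokines (-0.59 each), calls at the fold minimum that were lost without untreated repeat 2 or 3. FN1, fibronectin, rose by 0.63 after histamine, but had 0.30, not called, with the mean of its probe sets. SPP1, osteopontin, rose by 1.82 on the log2 scale after histamine. MGP (0.78) and COL1A2 (0.69) were also called higher after histamine. With the mean of a gene's probe sets, MGP turned to -0.27 and COL1A2 had 0.53, neither called.

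Of 15 TGF-beta and CCN regulators, 0 rose and 1 fell after IL6, 0 rose and 1 fell after IFNα, and 2 rose and 1 fell after histamine, with medians of 0.11, -0.16 and 0.13. TGFB2, a TGF-beta ligand, fell by 0.74 after IFNα and rose by 0.94 after histamine on the log2 scale. LTBP1, which holds latent TGF-beta in the matrix, fell by 0.77 after IL6, but had -0.44, not called, without the 3 arrays with raised hypoxia genes. Of 18 integrin adaptors and partners, 2 rose and 1 fell after IL6, 0 were called after IFNα and 2 rose after histamine, with medians of 0.145, -0.12 and 0.11. CD9, a tetraspanin that associates with integrins, read 12.82, 12.78 and 12.74 after IL6, 11.61, 11.61 and 11.59 after IFNα, 12.65, 12.65 and 12.73 after histamine, and 12.02, 12.03 and 11.97 in untreated cells. The IFNα arrays of CD9 lay below the untreated ones and the others above. It rose by 0.77 after IL6 and 0.67 after histamine on the log2 scale, and VCL, the adhesion adaptor vinculin, rose by 0.73 after histamine, but had 0.39, not called, with the mean of its probe sets. Of 18 genes of the plasminogen and other protease systems, 3 rose and 0 fell after IL6, 2 rose and 1 fell after IFNα, and 4 rose and 0 fell after histamine, with medians of 0.01, 0.025 and 0.14.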

How the data were processed

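Total RNA was biotin-labelled and hybridised to Affymetrix arrays of 1 colour, per the labels' protocols. The deposited values are on a log2 scale and were produced by the authors with RMA, per the submitters' processing notes. This method subtracts background, brings arrays to a common distribution and combines the probes of a set, which compresses differences of dim transcripts. Its settings were not stated there. No value was rescaled. Of 24128 probe sets, 112 controls were left out. The platform annotation gave 1 symbol for 13292 of the rest, several for 86 and none for 10638.

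Group means over all 12 arrays were fitted with limma 3.58.1 (lmFit, then eBayes with a mean-variance trend, R 4.3.3), with Benjamini-Hochberg adjustment over 24016 probe sets. The procedure was tested on simulated data. Plots used Python 3.11.15 and matplotlib 3.10.9. Groups, doses and times came from the sample labels.

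The members, the lists of neighbouring and marker genes and the rule for named genes were chosen with earlier results of these data known. Named were all called members, set representatives of each family, members between 1.4- and 1.5-fold, and members whose probe sets disagreed. The rule also covered up to 4 called genes of each list per comparison. Of these the text names only some, and for some lists it gives counts alone. COL4A2, ITGA1, ITGA6, ADAM17, LOXL2 and SERPINA3, which that rule lists, were not analysed here. Alternatives were no fold minimum or 2-fold, eBayes without a trend, limma's array weights, a fit without the dimmer 50% of probe sets, median centring, quantile normalization, a fit to only the groups compared, the repeat number as a block, the mean of a gene's probe sets, and leaving out each array. A fit without the 3 arrays that had raised hypoxia genes was chosen after seeing the data.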

Additional observations from a re-analysis of the deposited data

How the results depend on the processing

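No call of a member changed sign under any alternative. Of the 36 calls, 20 held under all 23 alternatives other than a 2-fold minimum. Another 4 (both of LOXL4, SERPINF1 after IFNα and THBS2 after histamine) held likewise, but could not be fitted without the dimmer 50% of probe sets. The fold minimum moved the counts most. Without it, 27 members were called after IL6, 30 after IFNα, 27 after histamine and 36 between IL6 and IFNα, against 4, 10, 7 and 15 with it. At 2-fold these counts were 1, 3, 1 and 4. Without the dimmer 50% of probe sets, only 38 of the 107 members were in the fit, 2 were called after IL6 and 30 had a moderated F, against 53. With the mean of a gene's probe sets, 11 of the 36 calls were lost and 6 members were called after IFNα. That setting also turned MGP after histamine, to -0.27 from the 0.78 of its brightest probe set. Leaving out each array gave 3 to 5 calls after IL6, 9 to 13 after IFNα, 7 to 8 after histamine and 14 to 16 between the cytokines, and lost 4 calls at least once. Leaving out the 3 arrays in which hypoxia genes were raised, the counts were 4, 9, 7 and 15, and 2 calls were lost.

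With the replicate block, the counts were 4, 10, 7 and 15 and no call was lost. Deviations of same-numbered arrays correlated at -0.07 to 0.60 over 18 pairs, and 9 of 12 arrays were closest to their own number, a hint of pairing from the data. The labels do not tie the numbers to a shared batch and several pairs correlated near or below 0, so the block was kept as an alternative. Signal over background limits the 23 dim members, in which a change would be compressed.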
